A study of Mus musculus with 32 samples.

Results

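Nitric oxide synthases and the enzymes of arginine metabolism were followed in primary mouse sternal chondrocytes by RNA sequencing. The group holds 9 of the 41388 genes counted and was set by gene symbol, matched to the Ensembl identifiers of the count tables. Its members are the synthases Nos1, Nos2 and Nos3, the arginases Arg1 and Arg2, the citrulline-recycling enzymes Ass1 and Asl, the cofactor enzyme Gch1 and the arginine transporter Slc7a2. All cells were chondrocytes of newborn C57BL/6 mice that were not passaged. The wild-type arms comprised no treatment, 10 ng/mL of IL-1β, 40 µM of the lactate dehydrogenase A inhibitor FX11, and the combination of both agents, each for 24 h and without virus. The other 3 lines were homozygous for a floxed allele of Ldha (Ldha f/f), of Nampt (Nampt f/f) or of Nfkbiz (Nfkbiz f/f). Their cells were infected for 24 h with an adenovirus carrying eGFP alone (GFP virus) or eGFP plus Cre (Cre virus), after which IL-1β was added or left out for another 24 h. Every floxed library therefore came from virus-infected cells, and Cre came from a virus and not from a cell type-specific promoter. No wild-type cells with Cre virus were analysed here, so the effect of Cre itself and that of the deletion cannot be told apart. Each of the 16 conditions had 2 libraries, and nothing in the labels says that these came from separate cultures or animals, so p-values measure the spread between these libraries.

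Nitric oxide synthases make nitric oxide and citrulline from arginine and need tetrahydrobiopterin as a cofactor. Nos2 is the cytokine-inducible enzyme, while Nos1 and Nos3 are the calcium-dependent forms first described in neurons and endothelium. Arginases compete for the same substrate and make ornithine and urea, and argininosuccinate synthase and lyase rebuild arginine from citrulline. In cartilage, IL-1β is a known inducer of NOS2, and nitric oxide is a well-studied product of inflamed chondrocytes.

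Library totals ranged from 15830658 to 39959888 counts. Col2a1, the main cartilage collagen, had at least 11250 CPM (counts scaled to library size with TMM factors) in every library, and the 8 chondrocyte markers together held 13910 to 88140 CPM. Their sums were lower with IL-1β in the GFP libraries, as given below. With Cre virus, Ldha fell from between 868.8 and 1557 CPM to between 72.9 and 118 CPM in Ldha f/f cells, and Nampt fell from between 54.6 and 68.4 CPM to between 4.63 and 6.86 CPM in Nampt f/f cells. Nfkbiz had 29.5 and 32.3 CPM with Cre virus and IL-1β in Nfkbiz f/f cells, against 235 and 229 CPM with GFP virus and IL-1β. The titles follow 2 styles, taken as 2 library sets, of 12 and 20 libraries, and the 8 Nfkbiz f/f libraries all belong to set 2, together with replicate 2 of every Ldha f/f and Nampt f/f condition. In set 2, 2 wild-type libraries ran against their labels. The library labelled FX11 held 2016 CPM of Mmp3 (stromelysin, a matrix protease induced by IL-1β), while 0.784 CPM was found in the one labelled IL-1β. Labels were kept as deposited, and tests in wild-type cells are given with and without these libraries. The floxed lines carried the comparisons below, where Mmp3 was at 0.355 to 2.78 CPM in the 6 untreated GFP libraries and at 849 to 1817 CPM in the 6 with IL-1β.

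The members differed widely in abundance. Levels per kilobase of gene length (CPM per kb, the scale on which genes can be set against each other) in the 6 untreated GFP libraries had medians of 38.4 for Slc7a2, 24.8 for Ass1, 2.04 for Asl, 1.65 for Nos1 and 0.686 for Gch1. Arg2, Arg1, Nos3 and Nos2 had medians of 0.174, 0.148, 0.0536 and 0.0309 CPM per kb. In the 6 GFP libraries with IL-1β, Slc7a2 and Ass1 still led with medians of 49.1 and 37.7 CPM per kb, and Nos2 and Gch1 followed with 13.8 and 8.27. Arg2 came next at 3.18 and Asl at 2.43, ahead of Arg1 at 0.226, Nos1 at 0.172 and Nos3 at 0.0470 CPM per kb. Nos1 was thus the most abundant synthase transcript without IL-1β and Nos2 the most abundant with it.

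Among the 9 members, 7 passed the filter of more than 1 CPM in at least 5 of the 12 GFP libraries, and all 7 were called for IL-1β (edgeR's quasi-likelihood test, adjusted p of 0.05 or less, line and set as covariates), or 6 with the replicate block, which lost Asl. Of 14283 genes tested, 56.2% were called, 28% higher and 28.3% lower. Of the members called, 6 were higher and 1 was lower, with a median log2 difference of 0.585 against -0.0083 over all genes tested. Nos2 and Arg2 passed the filter only through the libraries with IL-1β, where they were high, so the count is a description. Nos3 and Arg1 did not pass. The 8 macrophage and other leukocyte markers summed to 14.6 to 25.6 CPM in the untreated GFP libraries and to 32.8 to 66.2 CPM with IL-1β, without overlap. Of the 5 tested, Cd14, Cd68, Itgam and Lyz2 were higher with IL-1β and Csf1r was not called, while Ptprc, Adgre1 and Fcgr1 did not pass the filter. The 8 chondrocyte markers were all called lower with IL-1β. They summed to 66550 to 85090 CPM in the untreated GFP libraries and to 25010 to 29910 CPM with IL-1β. The part of either marker set in the members' responses to IL-1β was not tested.

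**Figure D1:**
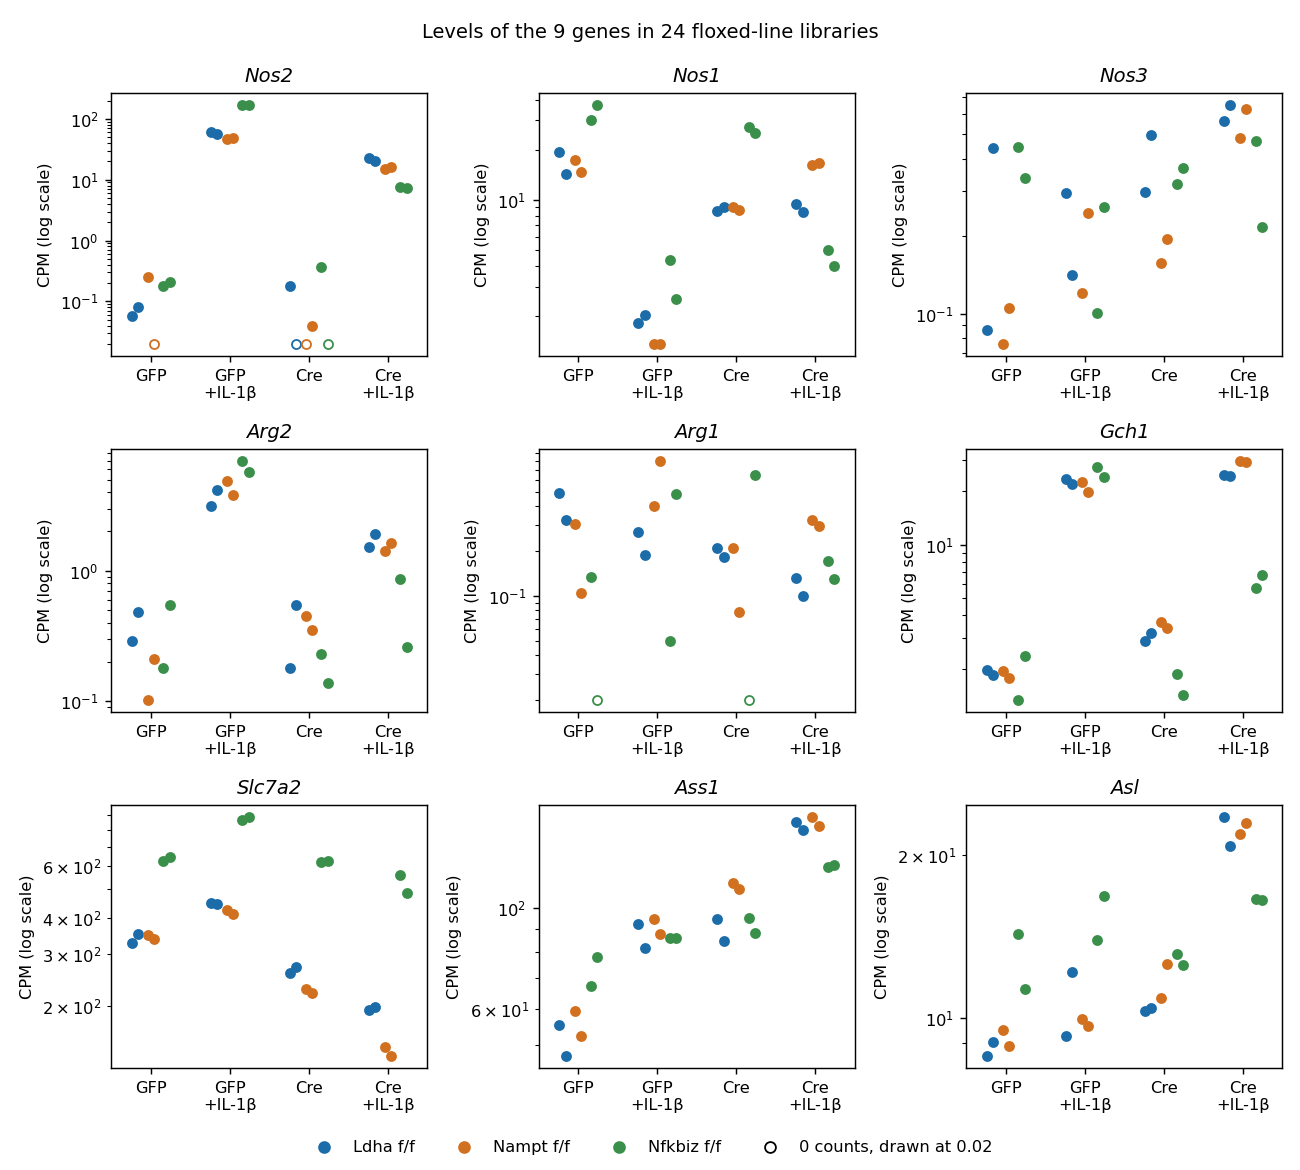
Level of each of the 9 members in the 24 floxed-line libraries, as CPM on a log axis that differs between panels, by virus and IL-1β. Each point is 1 library, colours mark the line, and open points hold 0 counts and are drawn at 0.02 CPM. Nos2 sits between 46.4 and 171 CPM with GFP virus and IL-1β and between 7.43 and 23.1 CPM with Cre virus and IL-1β, while Nos1 runs the other way in Ldha f/f and Nampt f/f cells.

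Nos2 (ENSMUSG00000020826, chromosome 11, 78920787 to 78960254 of GRCm38) was close to absent without IL-1β. Untreated GFP libraries held 2 and 2 counts in Ldha f/f, 10 and 0 in Nampt f/f and 4 and 5 in Nfkbiz f/f cells, at most 0.254 CPM. With IL-1β the levels were 59.9 and 55.5 CPM in Ldha f/f, 46.4 and 49.3 CPM in Nampt f/f and 171 and 169 CPM in Nfkbiz f/f cells. Each of the 6 libraries with IL-1β lay above all 6 without it, and Nfkbiz f/f cells were the highest, also within set 2, where the second value of each other line belongs. The 6 fibroblast and perichondrium markers were lower in Nfkbiz f/f cells, at 781 and 812 CPM in sum with GFP virus and IL-1β. The same sums were 4389 and 4562 CPM in Ldha f/f and 3826 and 3879 CPM in Nampt f/f cells. Their part in the level differences between lines was not tested. The log2 difference of Nos2 with IL-1β was 9.22 (SE 0.15, adjusted p = 2.55e-17), and it rests on 23 counts in all on the untreated side. Within lines it was 9.65, 8.13 and 9.74 in the Ldha f/f, Nampt f/f and then Nfkbiz f/f cells. The untreated library with 0 counts allows a level of up to 0.158 CPM (3 counts, counting error only).

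Nos1 (ENSMUSG00000029361, chromosome 5, 117781032 to 117958840) moved in the opposite direction. Untreated GFP libraries held 19.4 and 14.2 CPM in Ldha f/f, 17.4 and 14.7 CPM in Nampt f/f and 30 and 37.25 CPM in Nfkbiz f/f cells. With IL-1β the levels were 1.82 and 2.02 CPM, 1.36 and 1.36 CPM, and 4.36 and 2.52 CPM in the same order. All 6 libraries with IL-1β lay below all 6 without it, and the log2 difference was -3.31 (SE 0.13, adjusted p = 1.07e-12), or 9.91-fold lower. Within lines the log2 difference was -3.14, -3.54 and -3.29. Gm26995, an antisense gene that overlaps Nos1 by 3794 bases, reached at most 0.320 CPM in any library, and whether counting used the strand is not given in the sources used here.

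Nos3 (ENSMUSG00000028978, chromosome 5, 24364810 to 24384474), the endothelial synthase, ranged from 0.0761 to 0.791 CPM over all 32 libraries, or 2 to 18 counts, and was not tested. It overlaps Atg9b on the opposite strand by 294 bases, and Atg9b itself held 1.33 to 60.9 CPM. The 6 endothelial markers summed to 3.83 to 4.98 CPM in untreated GFP libraries and to 3.96 to 7.81 CPM with IL-1β. With Cre virus and IL-1β the sums were 17.2 and 21.3 CPM in Ldha f/f and 23.6 and 26.9 CPM in Nampt f/f cells. In Nfkbiz f/f cells they were 7.30 and 7.83 CPM. Mean Nos3 levels in these 3 conditions were 0.608, 0.554 and 0.345 CPM, and the part of the markers in them was not tested.

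Of the arginases, Arg2 (ENSMUSG00000021125, chromosome 12, 79130777 to 79156301), the mitochondrial enzyme, rose with IL-1β. Its untreated GFP levels were 0.287 and 0.484 CPM in Ldha f/f, 0.102 and 0.210 CPM in Nampt f/f and 0.178 and 0.548 CPM in Nfkbiz f/f cells. With IL-1β they were 3.16 and 4.19 CPM, 4.89 and 3.83 CPM, and 6.97 and 5.70 CPM. The arms did not overlap, and the log2 difference was 4.00 (SE 0.28, adjusted p = 2.21e-09). Arg2 shares 285 bases with Vti1b on the opposite strand. Vti1b held 29.4 to 48.9 CPM in untreated GFP libraries and 21.9 to 37.4 CPM with IL-1β, so it was not higher where Arg2 was. Arg1 (ENSMUSG00000019987, chromosome 10, 24915208 to 24927470), the cytosolic enzyme of liver and of alternatively activated macrophages, had 0 to 39 counts and passed 1 CPM in only 1 of the 32 libraries, wild type with IL-1β in set 1, at 1.08 CPM.

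Gch1 (ENSMUSG00000037580, chromosome 14, 47153895 to 47189413), GTP cyclohydrolase 1, catalyses the committed step of tetrahydrobiopterin synthesis. Because it rose with IL-1β and was lower with Cre virus in Nfkbiz f/f cells, the 250 bases before its RefSeq start (GRCm38.p6, minus strand, chr14:47189414-47189663) are shown, with letters that match a searched motif in capitals. The searched motifs were NF-kappaB by name, AP-1 TGANTCA, CRE TGACG, the C/EBP site TTGCG, the CCAAT box CCAAT, the GC box GGGCGG, the E-box CACGTG, the TATA box TATAAA and GAS TTCNNNGAA, each on both strands. The CRE and C/EBP matches overlap.
Gch1: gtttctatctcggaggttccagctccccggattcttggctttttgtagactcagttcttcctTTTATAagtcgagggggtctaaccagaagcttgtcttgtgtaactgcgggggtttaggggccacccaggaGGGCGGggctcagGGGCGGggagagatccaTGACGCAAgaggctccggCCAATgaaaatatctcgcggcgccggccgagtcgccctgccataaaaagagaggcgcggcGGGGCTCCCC
The window ends in a match to the NF-kappaB motif, which 3.90% of 32851 promoter windows of this length hold. The overlapping CRE and C/EBP matches are held by 17.8% and 14.5% of windows, the CCAAT box by 33.8%, the GC box by 32.7% and the TATA letters by 12.4%. Ass1 is shown beside it as the other member with a RefSeq window that rose with IL-1β (chr2:31470020-31470206, plus strand, up to its annotated start).
Ass1: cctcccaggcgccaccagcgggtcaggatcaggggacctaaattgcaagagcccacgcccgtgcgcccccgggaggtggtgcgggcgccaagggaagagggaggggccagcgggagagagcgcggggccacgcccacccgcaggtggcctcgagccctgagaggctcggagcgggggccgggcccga
These 187 bases hold none of the 9 motifs, as is the case in 35.1% of promoter windows cut to the first 187 of their 250 bases. The cut windows end before the RefSeq start of their genes, while the Ass1 stretch ends at its annotated start. A match or its absence in these letters says nothing of binding.

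Gch1 levels in the untreated GFP libraries were 1.98 and 1.86 CPM in Ldha f/f, 1.95 and 1.79 CPM in Nampt f/f and 1.34 and 2.36 CPM in Nfkbiz f/f cells. With IL-1β they were 23.4 and 22.0 CPM, 22.5 and 19.7 CPM, and 27.3 and 24.1 CPM. The 3 lines reached like levels from like starting points, and the log2 difference was 3.62 (SE 0.11, adjusted p = 3.25e-14), or 12.3-fold. Wild-type cells without virus were already higher, with 26.0 and 7.83 CPM in the untreated libraries. The leukocyte markers were higher there too, at 96.1 and 226 CPM in sum, and their part in the Gch1 level was not tested.

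Slc7a2 (ENSMUSG00000031596, chromosome 8, 40862396 to 40922308) encodes the cationic amino acid transporter CAT2. It held 328 and 352 CPM in untreated Ldha f/f, 349 and 339 CPM in untreated Nampt f/f and 627 and 645 CPM in untreated Nfkbiz f/f cells with GFP virus. With IL-1β the levels were 451 and 447 CPM, 427 and 412 CPM, and 866 and 883.5 CPM, higher within each line. Across lines the arms overlapped, since Nfkbiz f/f cells stood above the others in both, within set 2 as well. The fibroblast and perichondrium markers were lower in Nfkbiz f/f cells without IL-1β too, at 1027 and 1226 CPM in sum. They summed to 4919 to 5942 CPM in the other lines, and their part in the Slc7a2 levels was not tested. The log2 difference of Slc7a2 with IL-1β was 0.39 (SE 0.04, adjusted p = 3.71e-07), or 1.31-fold. Gm26584, a long noncoding gene on the opposite strand, shares 3252 bases and held 3.31 to 11.6 CPM in these 12 libraries.

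Both citrulline-recycling genes were called higher. Ass1 (ENSMUSG00000076441, chromosome 2, 31470207 to 31520672), argininosuccinate synthase, held 47.1 to 78.2 CPM in the 6 untreated GFP libraries (median 57.3) and 81.6 to 95.0 CPM with IL-1β (median 86.9), with no overlap. The log2 difference was 0.58 (SE 0.07, adjusted p = 3.03e-06), and it was 0.76, 0.73 and 0.26 in the Ldha f/f, Nampt f/f and then Nfkbiz f/f cells, the last with an adjusted p of 0.0774. Asl (ENSMUSG00000025533, chromosome 5, 130011258 to 130025132), argininosuccinate lyase, held 8.51 to 14.3 CPM untreated (median 9.29) and 9.28 to 16.8 CPM with IL-1β (median 11.1), and the arms overlapped. Its log2 difference of 0.22 (SE 0.09, adjusted p = 0.0452) was not called in any line alone (adjusted p from 0.204 to 0.522) and lost its call with the replicate block (adjusted p = 0.0541), with other filters on low counts (adjusted p = 0.0659 and 0.0694) and without any 1 of 7 of the 12 libraries, 2 of them untreated Ldha f/f, with log2 differences from 0.19 to 0.23.

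Cre virus was then compared with GFP virus within each line, both with IL-1β, to ask which members depended on the floxed gene under inflammation. Of the 7 members tested in each line, 5 were called in Ldha f/f cells, where 34% of 15880 genes were called, all 7 in Nampt f/f cells, where 48.4% of 16136 genes were called, and 5 in Nfkbiz f/f cells, where 17.4% of 15356 genes were called. The filter here was more than 1 CPM in at least 1 library. Nos2 and Arg2 passed it only through libraries with IL-1β, and Arg2 in Nfkbiz f/f cells only through those with GFP virus. These counts, and those for the interaction and between lines below, are therefore descriptions. The median log2 difference of the members was 0.136, 0.494 and -0.760, against -0.016, -0.0303 and -0.0087 over all genes tested. The 5 IL-1β response genes Mmp3, Il6, Lcn2, Saa3 and Cxcl1 were lower in sum in every line, from 6536 and 6582 to 2643 and 2651 CPM in Ldha f/f, from 5219 and 5280 to 2232 and 2241 CPM in Nampt f/f and from 13400 and 13620 to 716 and 886 CPM in Nfkbiz f/f cells. Of the 8 chondrocyte markers, 7 were called lower in Ldha f/f, 6 in Nampt f/f and 1, Comp, in Nfkbiz f/f cells. In no line was any of them called higher. Their sums were lower with Cre virus in Ldha f/f cells, at 13910 and 14870 against 25350 and 25800 CPM. The same held in Nampt f/f cells, at 14960 and 15360 against 25010 and 25630 CPM. In Nfkbiz f/f cells the sums were higher with Cre virus, at 33260 and 36040 against 27600 and 29910 CPM. The part of these markers in the members' levels was not tested. Lower levels in bulk RNA can come from fewer cells of a type or from less RNA per cell, which cannot be told apart here.

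Nos2 was lower with Cre virus and IL-1β in all 3 lines. The libraries held 23.1 and 20.7 CPM in Ldha f/f, 14.9 and 16.5 CPM in Nampt f/f and 7.69 and 7.43 CPM in Nfkbiz f/f cells, each pair below its GFP pair. The log2 differences were -1.37 (SE 0.15, adjusted p = 9.87e-05), -1.59 (SE 0.18, adjusted p = 3.68e-05) and -4.50 (SE 0.18, adjusted p = 5.44e-09), or 2.59-fold, 3.02-fold and 22.7-fold lower. Nos2 with Cre virus and IL-1β still stood above all untreated libraries of the same line. In a fit over the 24 floxed libraries, the difference in Nfkbiz f/f cells exceeded that in Ldha f/f cells by -3.09 (SE 0.23, adjusted p = 3.57e-10) and that in Nampt f/f cells by -2.86 (SE 0.23, adjusted p = 9.58e-10) on the log2 scale. The 8 macrophage and other leukocyte markers were also lower in sum with Cre virus and IL-1β in every line. Their sums were 30.03 and 31.78 against 40.42 and 42.19 CPM with GFP virus in Ldha f/f cells. In Nampt f/f cells the sums were 23.77 and 23.78 against 32.79 and 38.54 CPM. Those in Nfkbiz f/f cells were 57.95 and 60.28 against 63.82 and 66.24 CPM. Cd14 was lower in all 3 lines and Cd68 in Nampt f/f cells, no other of these markers was called, and their part in the Nos2 levels was not tested.

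Nos1 was higher with Cre virus and IL-1β in Ldha f/f and Nampt f/f cells. The libraries held 9.36 and 8.43 CPM in Ldha f/f and 16.2 and 16.6 CPM in Nampt f/f cells, against the GFP levels near 2 and 1.36 CPM given above. The log2 differences were 2.25 (SE 0.20, adjusted p = 2.00e-05) and 3.60 (SE 0.16, adjusted p = 3.33e-08), or 4.74-fold and 12.1-fold. In Nfkbiz f/f cells, 4.98 and 4.00 CPM stood beside 4.36 and 2.52 CPM with GFP virus, and the log2 difference of 0.38 (SE 0.24, interval from -0.096 to 0.862) did not pass the test (adjusted p = 0.323). The Cre difference in Nfkbiz f/f cells lay below that in Ldha f/f cells by 1.84 (SE 0.30, log2 difference -1.84, adjusted p = 7.13e-05) and below that in Nampt f/f cells by 3.18 (SE 0.32, log2 difference -3.18, adjusted p = 4.96e-08). The 6 neuron and glia markers also stood higher in sum with Cre virus and IL-1β, at 31.4 and 34.1 against 12.0 and 15.7 CPM in Ldha f/f and at 23.5 and 23.7 against 10.0 and 11.8 CPM in Nampt f/f cells. Of these, the neuronal markers Snap25 and Rbfox3 did not exceed 0.120 and 0.753 CPM in any library, Tubb3 reached 30.4 CPM, and their part in the Nos1 levels was not tested.

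**Figure D2:**
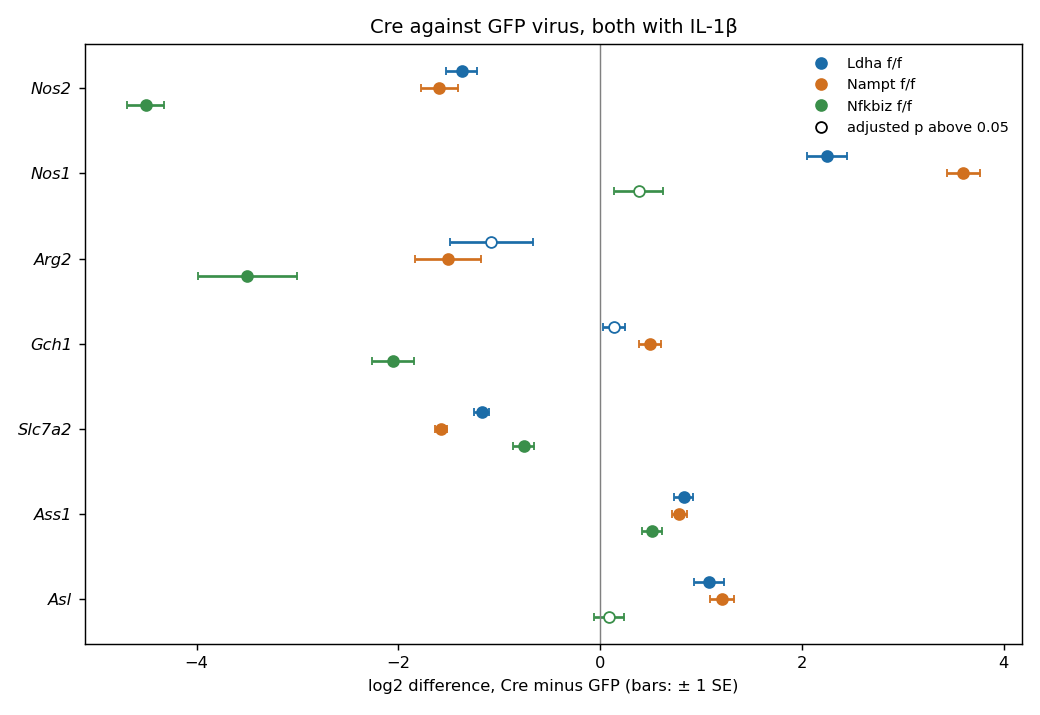
Log2 difference between Cre and GFP virus, both with IL-1β, for the 7 members tested in the Ldha f/f, Nampt f/f and then Nfkbiz f/f cells. Points are edgeR estimates from 8 libraries per line, bars are ± 1 SE, and open points had an adjusted p above 0.05. Nos2 is lowest in Nfkbiz f/f cells at -4.50, Nos1 is highest in Nampt f/f cells at 3.60, and Gch1 is lower in Nfkbiz f/f cells alone.

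Arg2 was called lower with Cre virus and IL-1β in Nampt f/f and Nfkbiz f/f cells. It held 1.52 and 1.91 CPM in Ldha f/f, 1.42 and 1.63 CPM in Nampt f/f and 0.859 and 0.261 CPM in Nfkbiz f/f cells, each pair below its GFP pair. The log2 difference was -1.51 (SE 0.33, adjusted p = 0.00321) in Nampt f/f and -3.50 (SE 0.49, adjusted p = 0.000345) in Nfkbiz f/f cells. In Ldha f/f cells it was -1.08 (SE 0.42) and did not pass (adjusted p = 0.0723), but it did so with the library set as a replicate block (log2 difference -1.07, adjusted p = 0.0146), which raised the count in this line to 6. The value in Nfkbiz f/f cells rests on 20 and 6 counts, and it exceeded that in Ldha f/f cells by -2.40 (SE 0.60, adjusted p = 0.00399) and that in Nampt f/f cells by -1.93 (SE 0.59, adjusted p = 0.0137). Without Nfkbiz f/f replicate 2 with Cre virus and IL-1β the latter was -1.32 (adjusted p = 0.0915), and without Nampt f/f replicate 2 with GFP virus and IL-1β it was -1.58 (adjusted p = 0.0755).

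Gch1 separated the lines. With Cre virus and IL-1β it held 24.6 and 24.5 CPM in Ldha f/f, 29.6 and 29.2 CPM in Nampt f/f and 5.72 and 6.78 CPM in Nfkbiz f/f cells. The first pair lay 0.14 above GFP on the log2 scale (SE 0.11, interval from -0.076 to 0.349, adjusted p = 0.378), the Nampt f/f pair 0.49 above (SE 0.11, adjusted p = 0.00335) and the Nfkbiz f/f pair at -2.06 (SE 0.21, adjusted p = 2.33e-05), or 4.16-fold lower. The Nfkbiz f/f difference exceeded those in the Ldha f/f and Nampt f/f lines by -2.16 (SE 0.20, adjusted p = 1.18e-08) and -2.50 (SE 0.20, adjusted p = 6.97e-10). Even so, Gch1 in Nfkbiz f/f cells with Cre virus stayed above its untreated levels of 1.88 and 1.43 CPM (log2 difference with IL-1β 1.93, SE 0.26, adjusted p = 0.000265).

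Slc7a2 was lower with Cre virus and IL-1β in every line, at 194 and 197 CPM in Ldha f/f, 144 and 134 CPM in Nampt f/f and 560 and 486 CPM in Nfkbiz f/f cells. The log2 differences were -1.18 (SE 0.07, adjusted p = 2.14e-06), -1.57 (SE 0.06, adjusted p = 1.07e-08) and -0.76 (SE 0.10, adjusted p = 0.000258). Here the smallest difference was that of Nfkbiz f/f cells, which stood apart from Ldha f/f by 0.45 (SE 0.10, adjusted p = 0.00118) and from Nampt f/f by 0.86 (SE 0.10, adjusted p = 2.85e-07).

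Ass1 was higher with Cre virus and IL-1β in every line. It held 155 and 149 CPM in Ldha f/f, 159 and 152 CPM in Nampt f/f and 124 and 125 CPM in Nfkbiz f/f cells, all above the 81.6 to 95.0 CPM with GFP virus and IL-1β. The log2 differences were 0.83 (SE 0.10, adjusted p = 0.000125), 0.79 (SE 0.07, adjusted p = 7.47e-06) and 0.51 (SE 0.10, adjusted p = 0.00336). Nfkbiz f/f differed from Ldha f/f cells by -0.28 (SE 0.10, adjusted p = 0.0456) and from Nampt f/f cells by -0.23 (SE 0.10, adjusted p = 0.0902). The call against Ldha f/f cells was lost with the replicate block (adjusted p = 0.0559) and without the set covariate (adjusted p = 0.139). It was also lost with other filters on low counts (adjusted p = 0.0535 and 0.141) and without any 1 of 14 of the 24 libraries. Asl held 23.5 and 20.8 CPM in Ldha f/f and 21.9 and 23.0 CPM in Nampt f/f cells, with log2 differences of 1.08 (SE 0.15, adjusted p = 0.000407) and 1.20 (SE 0.12, adjusted p = 1.21e-05). With Nfkbiz f/f cells, 16.6 and 16.6 CPM overlapped the GFP levels of 13.9 and 16.8 CPM, and the log2 difference was 0.09 (SE 0.15, interval from -0.203 to 0.385, adjusted p = 0.735). The Asl difference in Nfkbiz f/f cells lay apart from those in Ldha f/f and Nampt f/f cells by -0.96 (SE 0.19, adjusted p = 0.00045) and -1.06 (SE 0.19, adjusted p = 0.000126).

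All 7 members tested differed in this way between Nfkbiz f/f and Ldha f/f cells, where 27% of 16727 genes did, and 6 did so between Nfkbiz f/f and Nampt f/f cells, where 36.3% did. Of the 7, Ass1 lost its call under the alternatives given above. These comparisons share the Nfkbiz f/f libraries. In both, all 6 fibroblast and perichondrium markers and 7 of 8 chondrocyte markers were called higher for Nfkbiz f/f minus the other line. Their part in these differences was not tested.

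Without IL-1β fewer members were called in each line. In Ldha f/f and Nampt f/f cells 4 members were called in each line (5.52% and 14.4% of all genes), with Ass1 and Gch1 higher and Nos1 and Slc7a2 lower. Nos1 held 8.60 and 9.05 CPM with Cre virus in untreated Ldha f/f cells and 9.03 and 8.69 CPM in Nampt f/f cells, below the GFP pairs, with log2 differences of -0.95 (SE 0.17, adjusted p = 0.0114) and -0.87 (SE 0.12, adjusted p = 0.000883). Ass1 held 94.6 and 84.9 CPM and 114 and 110 CPM, with log2 differences of 0.79 (SE 0.10, adjusted p = 0.00164) and 0.99 (SE 0.07, adjusted p = 1.12e-05). Gch1 stood at 2.87 and 3.17 CPM and at 3.67 and 3.39 CPM, with log2 differences of 0.62 (SE 0.15, adjusted p = 0.0376) and 0.90 (SE 0.15, adjusted p = 0.00248). The Gch1 call in Ldha f/f cells was lost without any 1 of the 8 libraries, by DESeq2 (adjusted p = 0.0962) and by limma (adjusted p = 0.239). Slc7a2 had log2 differences of -0.37 (SE 0.07, adjusted p = 0.0151) and -0.62 (SE 0.06, adjusted p = 5.70e-05). Leaving out single libraries of Ldha f/f cells cut the 4 calls to between 1 and 3, with the count at 1 without either of the untreated Cre libraries and at 2 without either of the untreated GFP libraries. In Nampt f/f cells the replicate block raised the count to 6 by adding Asl (log2 difference 0.32, adjusted p = 0.0481) and Nos2, which rests on 10 and 0 counts against 0 and 1 count. In Nfkbiz f/f cells no member was called by edgeR, where 0.26% of genes (40) were called, and DESeq2 and limma also called 0 members. There 1 member, Ass1, had an unadjusted p under 0.05, as did 910 of 15356 genes. Ass1 held 95.2 and 88.3 CPM against 67.4 and 78.2 CPM with GFP virus (log2 difference 0.32, SE 0.10, adjusted p = 0.400).

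The response to IL-1β was next compared between Cre and GFP virus by an interaction term. In Ldha f/f cells 3 members differed (11.5% of all genes) and in Nampt f/f cells 4 did (22%). Nos1 stood out in both. With Cre virus its log2 difference with IL-1β was 0.05 in Ldha f/f (SE 0.17, interval from -0.286 to 0.394, adjusted p = 0.845) and 0.93 in Nampt f/f cells (SE 0.12, adjusted p = 0.000121), so that the fall seen with GFP virus was not detected in Ldha f/f cells and Nos1 rose in Nampt f/f cells. The interaction was 3.20 (SE 0.26, adjusted p = 8.26e-05) in Ldha f/f and 4.47 (SE 0.21, adjusted p = 7.75e-07) in Nampt f/f cells. In Nfkbiz f/f cells Nos1 fell with IL-1β with Cre virus too, from 27.4 and 25.2 to 4.98 and 4.00 CPM (log2 difference -2.54, SE 0.21, adjusted p = 4.77e-06), and the interaction of 0.75 (SE 0.30) did not pass (adjusted p = 0.215).

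Slc7a2 rose with IL-1β with GFP virus and fell with Cre virus in Ldha f/f and Nampt f/f cells. With Cre virus it went from 259 and 272 to 194 and 197 CPM in Ldha f/f cells and from 228 and 222 to 144 and 134 CPM in Nampt f/f cells, log2 differences of -0.40 (SE 0.07, adjusted p = 0.00169) and -0.64 (SE 0.06, adjusted p = 7.32e-06). The interaction was -0.80 (SE 0.10, adjusted p = 0.000952) in Ldha f/f and -0.95 (SE 0.08, adjusted p = 2.88e-05) in Nampt f/f cells. Asl responded more with Cre virus, with interactions of 0.86 (SE 0.21, adjusted p = 0.0304) and 0.87 (SE 0.17, adjusted p = 0.00411). In Ldha f/f cells the Asl call was lost without any one of 7 of the 8 libraries, at log2 differences from 0.61 to 0.91. Arg2 responded less in Nampt f/f cells, with an interaction of -3.00 (SE 0.63, adjusted p = 0.00635). This value rests on 4 and 4 counts in the untreated GFP libraries and 17 and 9 in the untreated Cre libraries. With the replicate block Ass1 also differed in Nampt f/f cells (log2 difference -0.20, adjusted p = 0.0261).

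In Nfkbiz f/f cells the members whose response differed were Nos2, Gch1 and Slc7a2 (5.19% of all genes). The Gch1 interaction was -1.87 (SE 0.36, adjusted p = 0.00961) and that of Slc7a2 was -0.72 (SE 0.14, adjusted p = 0.0117). The Nos2 interaction of -4.41 (SE 0.98, adjusted p = 0.0198) rests on 8 and 0 counts in the untreated Cre libraries, and it was 0.67 without the first of these (adjusted p = 0.803). The count of 3 in this line became 0 without GFP replicate 1 with IL-1β, and 1 without either untreated GFP library or without untreated Cre replicate 1.

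**Figure D3:**
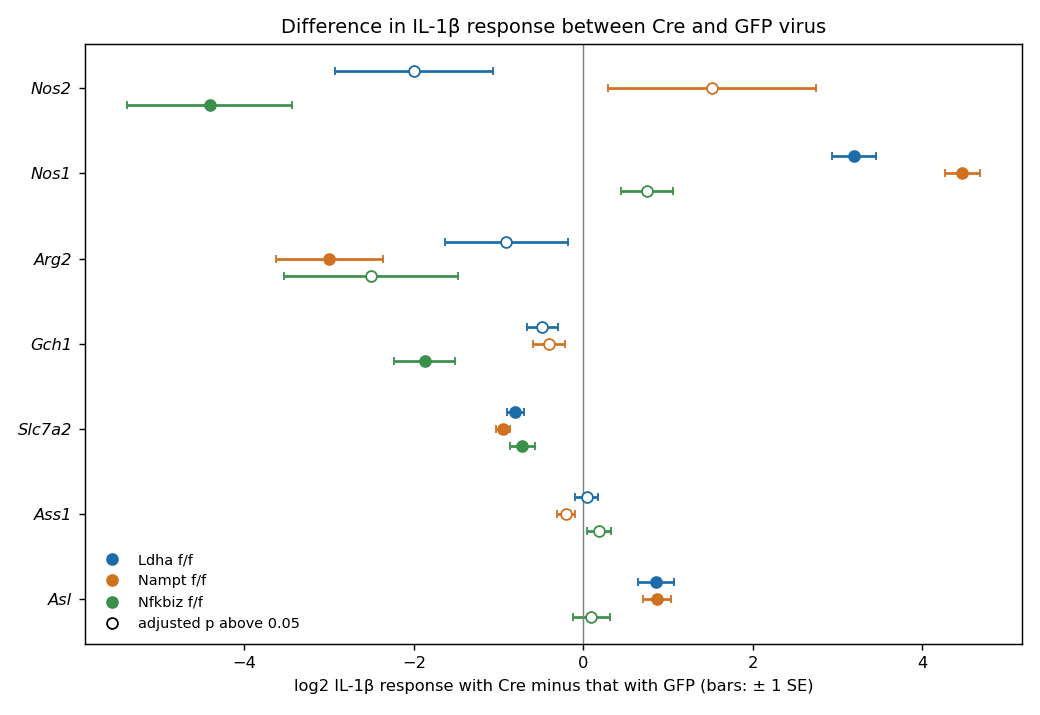
Difference in the log2 IL-1β response between Cre and GFP virus for the 7 members tested, by line. Points are edgeR estimates, bars are ± 1 SE, and open points had an adjusted p above 0.05. Nos1 lies at 3.20 and 4.47 in Ldha f/f and Nampt f/f cells, Gch1 at -1.87 in Nfkbiz f/f cells, and the Nos2 estimates, whose untreated libraries hold few counts, have wide bars.

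Ordered by mean level over the 16 conditions, Nos2 ran from 0.0195 CPM in untreated Nampt f/f cells with Cre virus to 0.194 CPM in untreated Nfkbiz f/f cells with GFP virus across the 7 conditions labelled untreated. These levels rest on at most 10 counts per library. Among them, the edgeR fit per line called no difference between Cre and GFP virus, while the replicate block called that in Nampt f/f cells. The Cre conditions with IL-1β followed at means of 7.56 CPM in Nfkbiz f/f, 15.7 CPM in Nampt f/f and 21.9 CPM in Ldha f/f cells, and then the GFP conditions with IL-1β of Nampt f/f at 47.9 CPM and Ldha f/f at 57.7 CPM. No neighbours among these 5 overlapped. Above them lay Nfkbiz f/f cells with GFP virus and IL-1β and the 3 treated wild-type conditions, whose ranges overlapped, and 2 of which hold the libraries that run against their labels.

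For Nos1 the order ran from 1.36 CPM in Nampt f/f cells with GFP virus and IL-1β to 33.6 CPM in untreated Nfkbiz f/f cells with GFP virus. Of its 15 neighbouring pairs 12 overlapped. The breaks lay above the lowest condition, below untreated Nfkbiz f/f cells with Cre virus (mean 26.3 CPM) and above them. The neighbouring pairs that overlapped numbered 13 for Arg2, 7 for Gch1, 4 for Slc7a2, 12 for Ass1 and 12 for Asl.

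In wild-type cells the values are given by library. In set 1, Nos2 stood at 0.266 CPM untreated, 0.250 CPM with FX11, 743 CPM with IL-1β and 603 CPM with both agents. In set 2 it stood at 0.0735 CPM untreated, 207 CPM in the library labelled FX11, 0.112 CPM in the one labelled IL-1β, and 126 CPM with both. Nos1 ran opposite to Nos2, at 29.3, 15.7, 3.56 and 2.98 CPM in set 1 and at 34.4, 1.75, 21.4 and 1.76 CPM in set 2, in the same order of labels. Arg2 followed Nos2 with 0.236, 0.250, 8.45 and 5.27 CPM in set 1 and 0.147, 3.96, 0.261 and 1.89 CPM in set 2. Both sets thus show high Nos2 beside low Nos1 in the library with both agents, and differ in which single-agent library shows it.

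**Figure D4:**
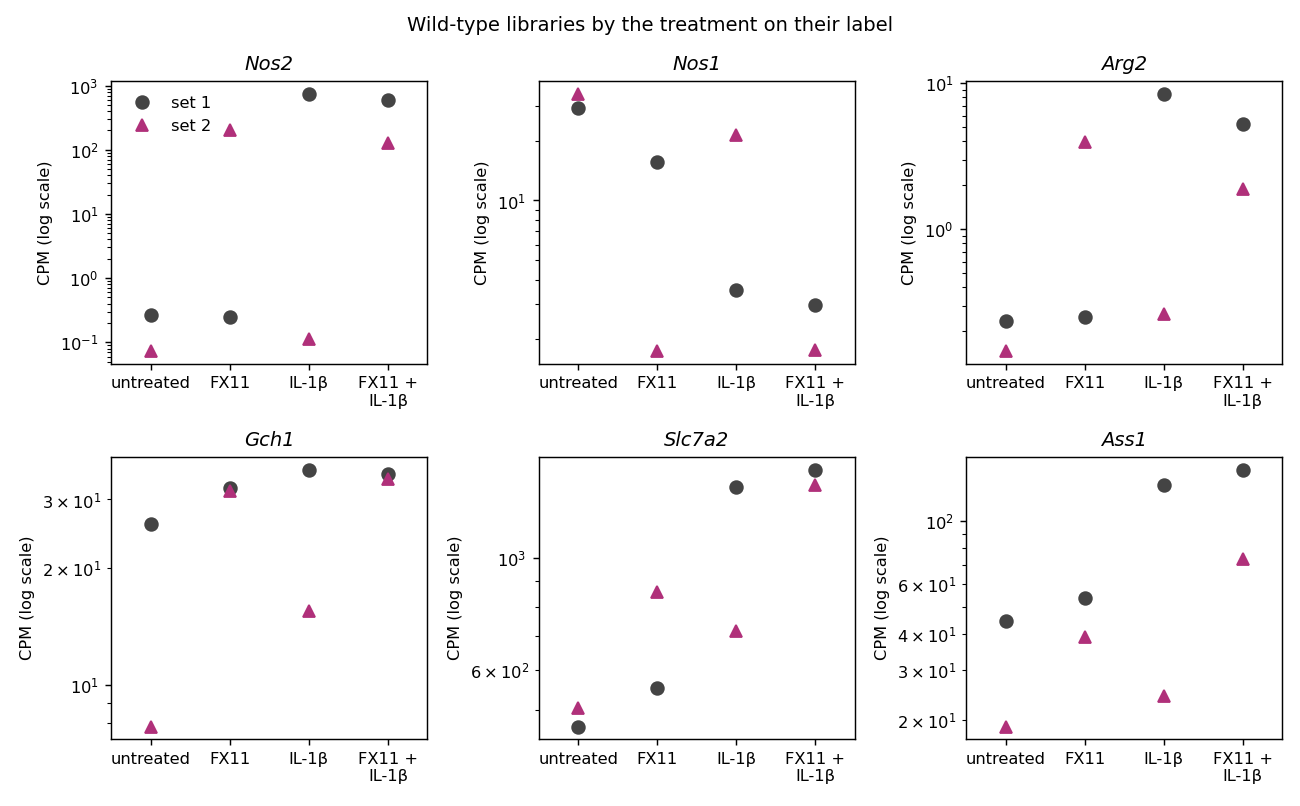
Levels of Nos2, Nos1, Arg2, Gch1, Slc7a2 and Ass1 in the 8 wild-type libraries as CPM on log axes, by the treatment on the label. Circles are set 1 and triangles set 2, with 1 library each. In set 2, Nos2 is at 207 CPM under the FX11 label and at 0.112 CPM under the IL-1β label.

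Slc7a2 in wild-type cells went with both agents from 463 to 1495 CPM in set 1 and from 503 to 1394 CPM in set 2, and Ass1 from 44.6 to 152 CPM and from 18.9 to 73.2 CPM. Gch1 went from 26.0 to 34.9 CPM and from 7.83 to 33.8 CPM. With both agents against untreated, where all 8 libraries share 1 estimate of the spread, no member was called by edgeR and 0% of 15461 genes were called. An unadjusted p under 0.05 was found for 3 members and for 860 of the 15461 genes. The 3 members were Slc7a2 (log2 difference 1.59, SE 0.39, adjusted p = 0.873), Nos1 (log2 difference -3.73, SE 1.21, adjusted p = 0.873) and Nos2 (log2 difference 10.99, SE 4.52, adjusted p = 0.874). DESeq2 called those 3 members (adjusted p = 0.0187, 0.0329 and 0.0215) and 153 of 15461 genes, and limma called 0 members. Without the 2 libraries that run against their labels edgeR again called no member.

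FX11 alone against untreated, and FX11 added to IL-1β, called no member and 0% of genes by edgeR, and 0 members had an unadjusted p under 0.05. DESeq2 and limma also called 0 members in both. Without the 2 libraries that run against their labels edgeR called 0 members in both, and 0 had an unadjusted p under 0.05, in a fit where the 1 library left with FX11 alone and the 1 left with IL-1β alone are assumed to vary like the others. In set 1, FX11 beside IL-1β left Nos2 at 603 against 743 CPM, Arg2 at 5.27 against 8.45 CPM and Slc7a2 at 1495 against 1379 CPM, with 1 library on each side and no replicate check.

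The wider pathway was followed in 6 lists of 53 genes, of which 52 were matched and 43 tested for IL-1β with GFP virus. Of these 11 were higher and 18 lower, with a median log2 difference of -0.07, so that 67.4% were called against 56.2% of all genes (28% higher and 28.3% lower). Among cationic amino acid transporters, 1 of 5 tested was higher and 3 were lower. Slc7a1, the widely expressed transporter CAT1, went from 448.5 ± 14.9 to 321 ± 45.2 CPM (SD, n = 6 each; log2 difference -0.48, adjusted p = 6.41e-07), and Slc7a3 and Slc7a7 had log2 differences of -0.43 and -0.73. Slc7a6 was higher by 0.34. Slc7a2 was therefore higher with IL-1β where Slc7a1 was lower.

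Among the tetrahydrobiopterin genes beyond Gch1, 2 of 6 tested were higher and 3 lower. Spr, sepiapterin reductase, was higher by 0.26. Pts and Pcbd2 had log2 differences of -0.42 and -0.34. Gchfr, which encodes the feedback regulator that inhibits GTP cyclohydrolase 1, fell from 2.35 ± 0.458 to 1.4 ± 0.215 CPM (SD, n = 6 each; log2 difference -0.72, adjusted p = 0.00229). Within lines Gchfr was called lower in Ldha f/f cells alone, and it held 0.988 to 1.60 CPM with IL-1β, near the filter. Over the 3 lines together the enzyme thus rose while its inhibitor fell at the RNA level.

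Downstream of arginase, 1 of 17 ornithine, polyamine and proline genes tested was higher and 7 were lower. Sat1, the polyamine acetyltransferase, had a log2 difference of 0.67 (adjusted p = 5.57e-08). Pycr1, which makes proline, fell from 93.6 ± 2.25 to 36.5 ± 4.56 CPM (SD, n = 6 each; log2 difference -1.35, adjusted p = 1.83e-12), and Aldh18a1, the entry enzyme of proline synthesis, had a log2 difference of -0.46. Gamt, which uses an arginine-derived intermediate to make creatine, had a log2 difference of -0.90 (adjusted p = 0.000135). Oat, which links ornithine to proline, did not pass (log2 difference -0.05, adjusted p = 0.279).

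The genes that clear methylarginine inhibitors, Ddah1 and Ddah2, were both higher, by 0.60 (adjusted p = 2.49e-05) and 0.47 (adjusted p = 0.0135), and these were the 2 tested of that list. Of 8 partners of the synthases, 3 were higher and 2 lower. Nos1ap, the adaptor of NOS1, rose from 11.4 ± 1.75 to 35.4 ± 6.91 CPM (SD, n = 6 each; log2 difference 1.63, adjusted p = 1.56e-09), opposite to Nos1 itself. Cav1, a binding partner of NOS3, was higher by 0.51, while Calm3 and Nosip had log2 differences of -0.17 each.

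In the nitric oxide receptor and cyclic GMP list 2 of 5 tested were higher and 3 lower. Gucy1a1, a subunit of the nitric oxide receptor guanylate cyclase, rose from 2.11 ± 0.408 to 7.64 ± 2.46 CPM (SD, n = 6 each; log2 difference 1.84, adjusted p = 1.30e-08), and Pde5a, which breaks down cyclic GMP, was higher by 0.37. The cyclic GMP-dependent kinases Prkg1 and Prkg2 had log2 differences of -0.96 (adjusted p = 7.43e-08) and -0.84 (adjusted p = 1.49e-10), and Adh5, the S-nitrosoglutathione reductase, -0.13. Prkg2 is known as a regulator of growth plate chondrocytes.

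**Figure D5:**
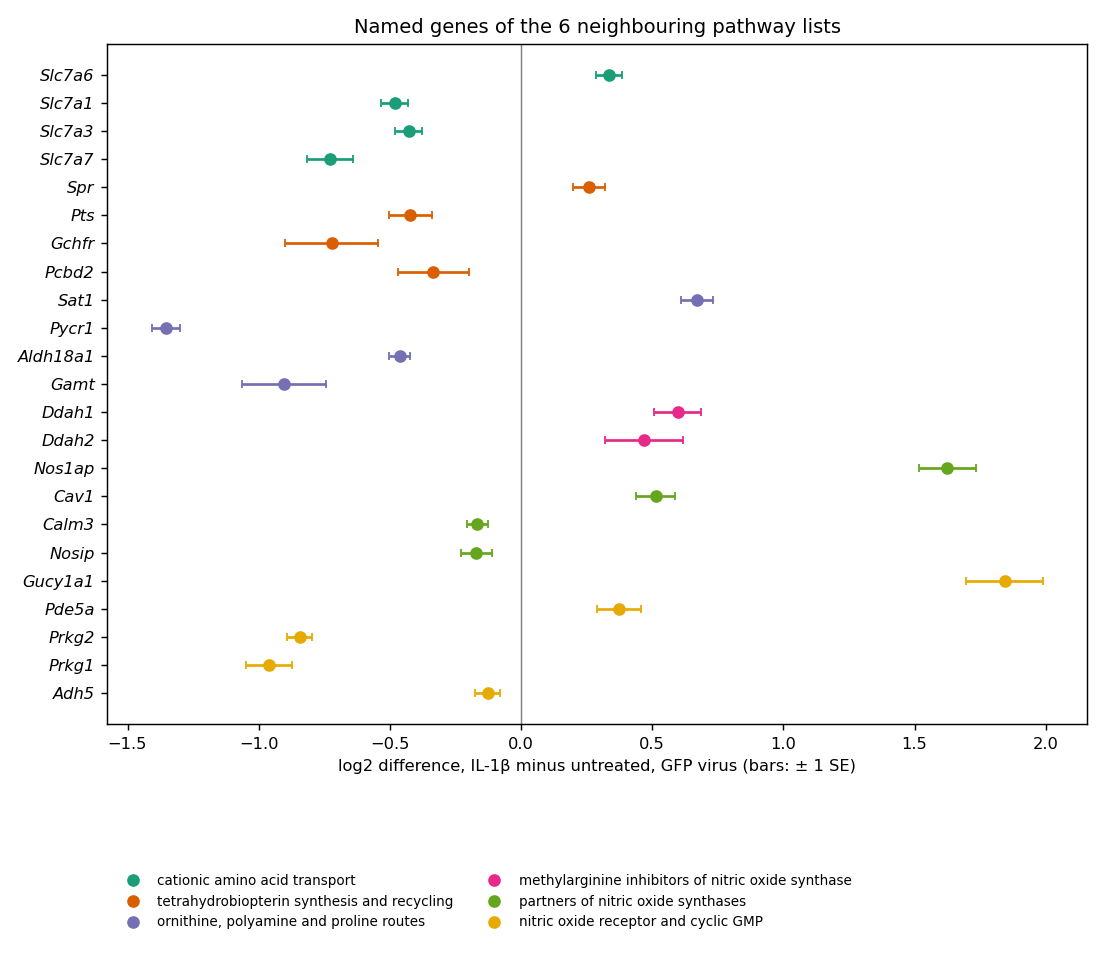
Log2 difference between IL-1β and untreated GFP libraries for the genes named here from the 6 neighbouring lists, coloured by list. Points are edgeR estimates from 12 libraries and bars are ± 1 SE. Gucy1a1 at 1.84 and Nos1ap at 1.63 lie highest, and Pycr1 at -1.35 lowest.

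With Cre virus under IL-1β, the 6 lists held 8 higher and 14 lower of 47 tested in Ldha f/f, 12 higher and 16 lower of 47 in Nampt f/f and 1 higher and 8 lower of 44 in Nfkbiz f/f cells, with medians of -0.102, -0.002 and -0.012. These are 46.8%, 59.6% and 20.5% of the list genes tested, beside 34%, 48.4% and 17.4% of all genes. Gucy1a1, Slc7a3, Sat1, Oat and Nos1ap were lower in all 3 lines. Prkg1 was lower in Ldha f/f and Nampt f/f cells and higher in Nfkbiz f/f cells. Gchfr was higher in Ldha f/f and Nampt f/f cells.

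The genes whose pattern over the 16 conditions lay nearest to that of Nos2, by mean absolute difference in centred log2 CPM among 14255 genes, were Lcn2 (0.417), Vnn3 (0.507), Steap4 (0.517), Lbp (0.560) and Cxcl2 (0.563). Those nearest to Nos1 were Wscd2 (0.429), Gal3st1 (0.448), Drp2 (0.5), Fam180a (0.507) and Myh14 (0.533). These distances are descriptions over conditions that share libraries and sets.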

How the data were processed

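RNA from 32 libraries was sequenced after ribosomal RNA depletion. The authors aligned the reads to GRCm38 with STAR and counted unique, unambiguous reads per gene with featureCounts. The deposited counts are not normalized, the deposited CPM divide them by the library total, and the deposited RPKM also divide by gene length; neither CPM nor RPKM entered a test. Levels given here are CPM with TMM factors over all 32 libraries. Groups came from the labels. Tests used edgeR 4.0.16 (R 4.3.3) quasi-likelihood fits with TMM, Benjamini-Hochberg adjustment over all genes tested and a threshold of 0.05, on 12 libraries (IL-1β, line and set as covariates), 8 libraries per line, or 24 libraries (differences between lines, set as covariate), with genes above 1 CPM in at least 5 libraries (12-library fit) or 1 library (others), and 355 ribosomal RNA genes left out. limma 3.58.1 and DESeq2 1.42.0 were alternatives. Tests were checked on simulated counts. SE is the log2 difference over the root of its F statistic, and intervals are 1.96 SE each way.

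The members and lists were chosen with earlier results of these data known. Named genes were the 9 members, the deleted genes, Mmp3, Acan and, per neighbouring list, at most 3 higher and 3 lower genes with the smallest adjusted p for IL-1β; the 5 nearest genes to Nos2 and Nos1 used a pseudocount of 0.5 CPM. Oat was named after its values were seen. Of the genes this rule named, 2 are not reported here, though the counts of their lists include them. Same-numbered libraries of Ldha f/f and Nampt f/f (1 per set) deviated together, with correlations across genes of 0.328 to 0.541 and 0.342 to 0.444. The main fits per line did not use this pairing, and the set as replicate block was an alternative, reported where named. In wild type (-0.161 to 0.726) and Nfkbiz f/f (-0.223 to 0.088) numbers did not pair. Gene names came from GENCODE M21, and promoters from RefSeq tables of GRCm38.p6, which held windows for 3 members, of which 2 are printed. Protein sequences were not used here.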

Additional observations from a re-analysis of the deposited data

Results flagged for a closer look

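Arg1 stood apart in 1 of 36 arms of 6 libraries tested by Dixon's criterion, which chance meets in about 1 in 20. Untreated Nfkbiz f/f cells with Cre virus, replicate 2, held 0.644 CPM (14 counts), and the nearest of the other untreated Cre libraries held 0.21 CPM.

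The response to IL-1β differed between Cre and GFP virus by the interaction term for 10 values. In Ldha f/f cells these were Nos1 (log2 difference 3.20), Asl (0.86) and Slc7a2 (-0.80). In Nampt f/f cells they were Nos1 (4.47), Asl (0.87), Slc7a2 (-0.95) and Arg2 (-3.00). In Nfkbiz f/f cells they were Nos2 (-4.41), Gch1 (-1.87) and Slc7a2 (-0.72).

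The difference between Cre and GFP virus with IL-1β differed between lines for 13 values. For Nfkbiz f/f minus Ldha f/f cells the log2 differences were -3.09 for Nos2, -2.40 for Arg2, -2.16 for Gch1, -1.84 for Nos1, -0.96 for Asl, -0.28 for Ass1 and 0.45 for Slc7a2. The Ass1 value lost its call without any 1 of 14 of the 24 libraries. For Nfkbiz f/f minus Nampt f/f cells the log2 differences were -3.18 for Nos1, -2.86 for Nos2, -2.50 for Gch1, -1.93 for Arg2, -1.06 for Asl and 0.86 for Slc7a2.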

How the results depend on the processing

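Of 266 alternative counts of members called, 256 were within 1.5 times the reported count. Of 1307 alternative values of single members, 1223 kept their direction and their side of the threshold, 70 lost the call, 12 gained it and 2 changed sign. Leaving out 1 library gave counts of 6 to 7 for IL-1β. With Cre against GFP virus and IL-1β they were 5 to 6 in Ldha f/f, 7 to 7 in Nampt f/f and 5 to 5 in Nfkbiz f/f cells, and without IL-1β 1 to 3, 4 to 5 and 0 to 0. For the interaction they were 2 to 3, 4 to 4 and 0 to 4. Between lines they were 6 to 7 and 5 to 6. Both sign changes came from leaving out 1 library. The Nos2 interaction in Nfkbiz f/f cells ranged from -5.37 to 0.67, the latter without untreated Cre replicate 1, and the uncalled Asl difference with IL-1β there ranged from -0.038 to 0.23, the former without GFP replicate 1 with IL-1β. In Nfkbiz f/f cells without IL-1β, a fit of 24 libraries called 1 member, Ass1 (adjusted p = 0.0184), and 256 of 16727 genes. In wild type with both agents against untreated, DESeq2 called 3 members and 153 of 15461 genes. The cause of these changes was not tested.

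With the replicate block, the count went from 5 to 6 in Ldha f/f cells with IL-1β, from 4 to 6 in Nampt f/f cells without IL-1β and from 4 to 5 for the Nampt f/f interaction. It went from 7 to 6 for IL-1β, where Asl was lost (adjusted p = 0.0541), and from 7 to 6 for Nfkbiz f/f minus Ldha f/f, where Ass1 was lost (adjusted p = 0.0559). The block changed no other count of members called. With 2 libraries a condition, Nos2 and Arg2 without IL-1β and Nos3 and Arg1 throughout rest on few counts. For Cre against GFP virus without IL-1β, the edgeR fits per line without the block called neither Nos2 nor Arg2. With the block, Nos2 was called in Nampt f/f cells. Nos3 and Arg1 did not pass the filter in the floxed lines, so their differences were not tested there.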
